A study of Mus musculus with 24 samples.

Results

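The genes described here encode small nucleolar RNAs (snoRNAs), small Cajal body RNAs (scaRNAs) and small nuclear RNAs (snRNAs) of the mouse. They were taken by name, as the genes whose symbol begins with Snora or Snord and a digit, Scarna, or Rnu and a digit, from the array rows that carry a single gene symbol. Rows of the imprinted noncoding cluster on chromosome 12 were left out. This gave 64 of the 18820 genes measured. The 64 comprised 31 box C/D RNAs (30 Snord genes and the U3 gene Rnu3a), 26 box H/ACA RNAs, 3 Cajal body RNAs, 3 spliceosomal RNAs (Rnu2-10, Rnu5g and Rnu12) and the U7 gene Rnu7. The rule uses names alone, and it was written with earlier results of these data known. Where a gene had several rows, the brightest over the 24 arrays was used.

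Total RNA of the prefrontal cortex was hybridised to Affymetrix whole-transcript arrays, with 1 array for each of 24 male mice aged 8 weeks on the C57BL6/J background. Labels gave 12 mice the genotype Df16(A)+/- (mutant) and 12 their wild-type littermates. Df16(A) is a hemizygous chromosomal deficiency that takes out, with many neighbouring genes, Dgcr8, whose protein is the partner of Drosha in the nuclear cropping of microRNA precursors. Values were log2 expression levels, and a difference is the mean of mutants minus the mean of wild types on that scale, so that a value of 1 would be a doubling. The labels number the arrays within each genotype and do not describe the dissections further, and p-values therefore measure the spread between these 24 samples.

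Box C/D RNAs guide the 2'-O-methylation of ribosomal RNA in particles with Fbl, Nop56, Nop58 and Snu13, and box H/ACA RNAs guide its pseudouridylation with Dkc1, Nop10, Nhp2 and Gar1. A few, such as U3, U8 and U14, are needed for cleavage of the ribosomal RNA precursor. Cajal body RNAs guide the same modifications on snRNAs, which form the cores of the spliceosome, while U7 directs the end formation of histone messenger RNAs. Most mouse snoRNAs are cut from introns of host genes, many of which encode ribosomal proteins or translation factors. Dgcr8 has been reported to bind snoRNAs in cells, and some snoRNAs give rise to microRNA-like fragments without Drosha and Dgcr8. The question the comparison addresses is whether the levels of these RNAs, which do not depend on the Drosha complex for their normal maturation, differed between mutants and wild types.

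RefSeq annotation of GRCm38.p6 was searched for microRNA hairpins over the 64 genes, except Scarna17, Snord58b and Snora74a, which were left out of the search. Among the genes searched it places 5 hairpins over a gene. None of the 5 hairpins had a row of its own among the single-symbol genes. The rows of Scarna13, Snord33, Snora19, Snora34 and Snora36b are therefore the readings of these loci. The hairpins are shown, 5' to 3', because they are the stretches at which a snoRNA and a microRNA annotation share bases; capitals mark the annotated mature microRNA.
Mir3069 in Scarna13: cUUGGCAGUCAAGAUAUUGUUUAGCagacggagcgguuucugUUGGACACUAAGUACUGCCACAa
Mir5121 at Snord33: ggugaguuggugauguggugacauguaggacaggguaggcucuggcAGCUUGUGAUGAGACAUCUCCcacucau
Mir3084-2 over Snora19: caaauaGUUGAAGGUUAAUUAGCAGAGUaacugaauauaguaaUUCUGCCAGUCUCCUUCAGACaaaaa
Mir1291 at Snora34: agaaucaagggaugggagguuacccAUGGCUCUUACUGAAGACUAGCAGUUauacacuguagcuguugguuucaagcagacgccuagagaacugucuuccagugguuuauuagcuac
Mir664 at Snora36b: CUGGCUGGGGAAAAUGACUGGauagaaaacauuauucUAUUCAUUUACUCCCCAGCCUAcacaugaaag

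The Mir3069 hairpin (chr12:105031077-105031141, minus strand, in the noncoding host Snhg10) lies wholly inside Scarna13. Mir3084-2 (chr19:60774329-60774397, minus strand, in Eif3a) covers all of the annotated Snora19. Mir5121 (chr7:45126918-45126991, minus strand, in Rpl13a) shares 28 bases with Snord33, Mir1291 (chr15:98519762-98519878, minus strand, in Kansl2) shares 73 with Snora34, and Mir664 (chr1:185242975-185243043, plus strand, in Rab3gap2) shares 64 with Snora36b. The trinucleotide ACA, which stands 3 bases before the end of a box H/ACA RNA, was found at that place in Scarna13, Snora19 and Snora36b, the 3 RNAs for which the printed hairpin covers that place; the hairpin at Snora34 does not reach the end of that RNA, which was not searched. It stood 3 bases before the end of 1.59% of the 1005 mouse hairpins in the same RefSeq table. The letters UGAUGA, the core of box C, began at base 7 of Snord33 and lie inside the mature part of Mir5121, and they occurred in the last 28 bases of 0.498% of the hairpins. Only the strand of the hairpin was searched, and it was assumed to be that of the small RNA. The letters of the 2 motifs do not overlap one another, and a match is a description of letters.

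None of the 64 small RNA genes differed between mutants and wild types at an adjusted p under 0.05 (limma with Benjamini-Hochberg adjustment over all 18820 genes), whereas 0.76% of all genes did (0.531% higher and 0.228% lower in mutants). The smallest adjusted p among them was 0.210, for Snord42b. At an unadjusted p under 0.05 there were 7 of 64, or 10.9%, beside 11.9% of all genes, with 2 of the 7 higher and 5 lower in mutants. Differences ran from -0.24 for Snord118 to 0.21 for Snora41. The 95% interval of the difference reached 0.129 to either side of the estimate for the median gene, and 57 of the 64 intervals included 0. The lowest bound of any interval was -0.506 and the highest 0.403, and the misses of the threshold do not show that levels were equal. A further 28 rows of small RNAs that carry several symbols, and so stood outside the 64, were read in a limma fit over all 35556 probe sets, of which 0.43% were called. None of the 28 passed, and none had an unadjusted p under 0.05.

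**Figure D1:**
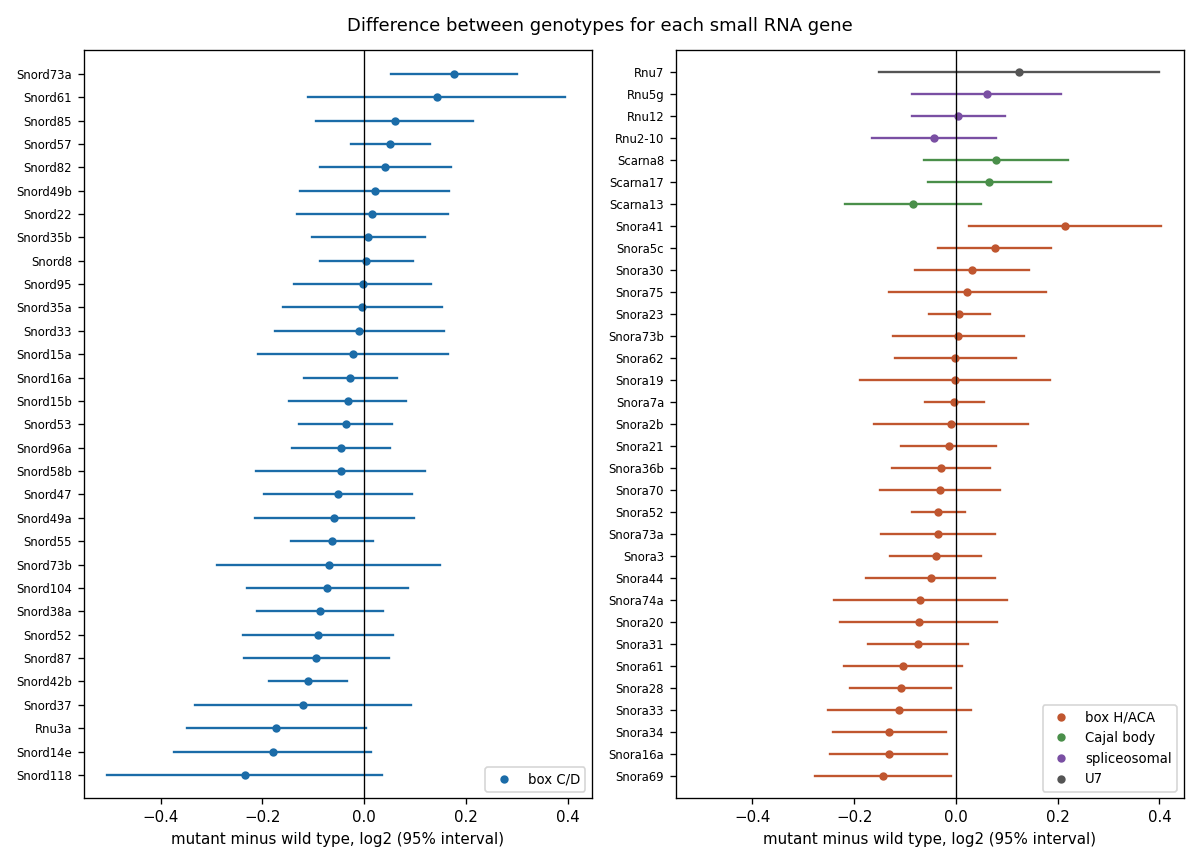
Mutant minus wild-type difference of each of the 64 small RNA genes on the log2 scale (points) with its 95% interval (bars), n = 12 mice per genotype, box C/D on the left and the other classes on the right. Of the 64 intervals 57 cross 0; those that do not are Snord42b, Snora34, Snora16a, Snora28 and Snora69 on the negative side and Snord73a and Snora41 on the positive side.

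The transcripts and precursors of microRNAs were read on the same arrays by 303 genes. Their symbols begin with Mir or Mirlet and a digit, and symbols ending in hg were left out. Of these, 59 were called higher in mutants and 0 lower, and the median difference over all 303 was 0.11. The deficiency itself was visible: of 25 measured genes of the deleted interval 20 were called lower in mutants, with a median of -0.64, and Dgcr8 stood at 8.26 ± 0.08 (SD, n = 12) in mutants against 8.79 ± 0.05 (SD, n = 12) in wild types.

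**Figure D2:**
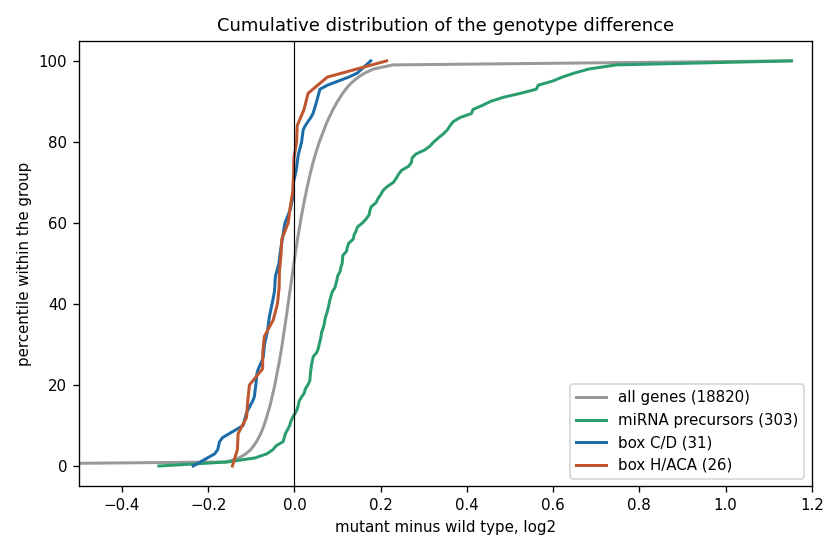
Cumulative distribution of the mutant minus wild-type difference (log2) in box C/D genes, box H/ACA genes, microRNA precursor genes and all genes, as percentiles within each group; the axis starts at -0.5, short of the lowest of all genes at -1.20. The curves of both snoRNA classes stand to the left of 0 over most of their height, with medians of -0.036 and -0.033, and the precursor curve stands to the right with a median of 0.11.

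The signs of the differences leaned to the negative side. The difference was below 0 in 44 of 64 genes, or 68.8%, beside 9600 of all 18820 genes, and the median was -0.032 beside -0.0014 for all genes. Box C/D genes had 22 of 31 below 0 and a median of -0.036, and the middle 50% of them lay between -0.080 and 0.0066. Box H/ACA genes had 20 of 26 below 0 and a median of -0.033, and their middle 50% lay between -0.074 and -0.0015. The spliceosomal genes had 1 of 3 below 0 and a median of 0.0046, the Cajal body genes 1 of 3 and a median of 0.066. These medians are descriptions without a test, and the genes share the same 24 arrays, so they do not count as independent readings; no difference between the classes was tested.

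The lean was smaller without 1 mouse and differed between sets of arrays. Without wild type 12 the median over the 64 genes was -0.012 with 38 below 0, and that of box C/D genes was -0.0077 with 18 of 31 below 0. The labels carry running array numbers. Among arrays 1 to 12 (7 mutants, 5 wild types) the difference was below 0 in 32 of 64 genes with a median of 0.00088, beside 10649 of 18820 and a median of -0.012 for all genes. Among arrays 13 to 24 (5 mutants, 7 wild types, wild types 11 and 12 among them) it was below 0 in 41 of 64 with a median of -0.028, beside 8722 of 18820 and 0.0064 for all genes. The set of arrays and the mice in it cannot be told apart. The sign was negative in both sets of arrays for 21 genes, positive in both for 12 and opposite for 31. No gene of the 64 was called in either set in limma. Of all 18820 genes, 35 were called higher and 23 lower in arrays 1 to 12, and 35 higher and 22 lower in arrays 13 to 24. At an unadjusted p under 0.05 there were 2 of 64 beside 1704 of 18820 genes in arrays 1 to 12, and 10 of 64 beside 1880 of 18820 in arrays 13 to 24.

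**Figure D3:**
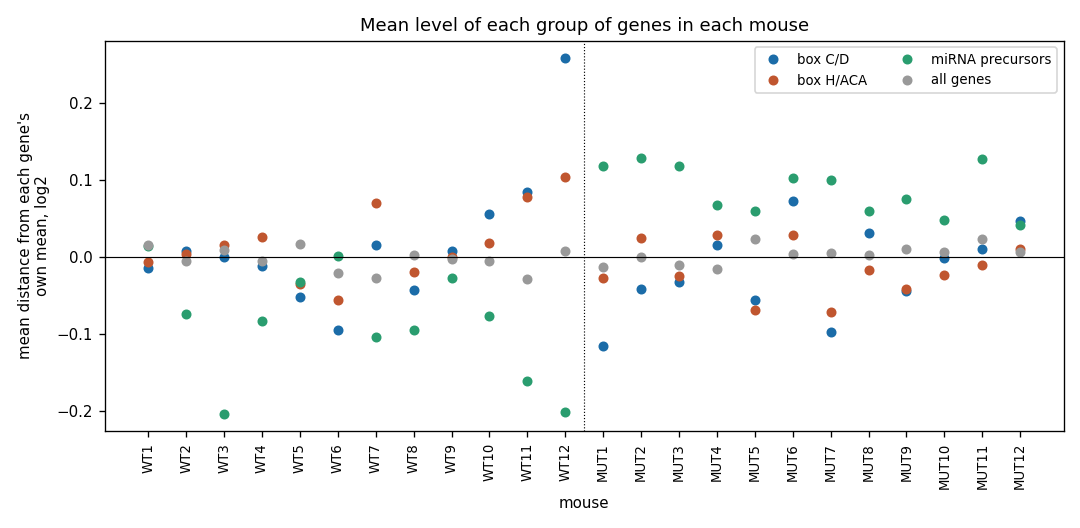
Mean distance of a group of genes from each gene's own mean over 24 mice (log2), one column of points per mouse, for box C/D genes, box H/ACA genes, microRNA precursors and all genes. Wild type 12 has the highest box C/D mean at 0.26 and a precursor mean of -0.20, while the means of all genes stay between -0.028 and 0.024 in every mouse.

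Mouse by mouse, the mean distance of the 64 genes from their own means was -0.014 ± 0.040 (SD, n = 12) in mutants, from -0.076 to 0.048, and 0.014 ± 0.065 (SD, n = 12) in wild types, from -0.080 to 0.17. The range of the mutants lay inside that of the wild types. Wild type 12 held the highest value of all 24 mice in 17 of the 64 genes, of which 12 were box C/D and 5 box H/ACA, and stood above the gene's mean in 54. Wild type 11 came next among wild types, with a box C/D mean of 0.085 and a precursor mean of -0.16. Wild type 3 had the lowest precursor mean of all, -0.20, with a box C/D mean of -0.0004, and mutant 6 had both means above 0, at 0.10 and 0.073.

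Among box C/D RNAs that guide methylation, Snord42b (U42B), which lies in an intron of the ribosomal protein gene Rpl23a, had the smallest p of all 64. Its level was 8.69, 8.78 and 9.01 (lowest, median, highest) in mutants and 8.77, 8.93 and 9.07 in wild types. The means were 8.81 ± 0.09 and 8.92 ± 0.09 (SD, n = 12 each), a difference of -0.11 with a standard error of 0.037 and an adjusted p of 0.210 in limma. Of the 12 mutants 11 lay under the wild-type median and 5 lay under the lowest wild type, and the ranges overlapped over most of their length. The difference was -0.14 in arrays 1 to 12 and -0.12 in arrays 13 to 24.

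Snord73a, from an intron of Rps3a1, which encodes another ribosomal protein, stood on the other side. Mutants had 4.72, 4.96 and 5.25 and wild types 4.62, 4.80 and 5.11 as lowest, median and highest. The means were 4.98 ± 0.16 and 4.80 ± 0.15 (SD, n = 12 each), a difference of 0.18 with a standard error of 0.060 and an adjusted p of 0.215 in limma. Of the 12 mutants, 11 were above the wild-type median and 3 above the highest wild type. Its neighbour in the same gene, Snord73b, had a difference of -0.069, and Rps3a1 itself one of -0.026. Of the other box C/D genes with positive differences, Snord61 (in Rbmx, an X-linked gene of an RNA-binding protein) had 0.14, Snord85 0.060 and Snord57 0.051. Snord57, whose host Nop56 encodes a core protein of box C/D particles, was the brightest member of the class, at 11.86 ± 0.08 in mutants and 11.80 ± 0.10 in wild types (SD, n = 12 each).

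The 4 RNAs of pre-ribosomal RNA processing included the 3 lowest differences of the class, none of which passed the test. Snord118 is U8, required for maturation of the large-subunit ribosomal RNAs. It had 5.72, 6.14 and 6.56 in mutants and 5.98, 6.23 and 7.30 in wild types, a difference of -0.24 with a standard error of 0.131 and an adjusted p of 0.495 in limma. The medians of the genotypes lay close together and the 2 highest values, 7.30 and 6.91, belonged to wild types 11 and 12. Without wild type 11 the difference was -0.15, and it was 0.075 in arrays 1 to 12 against -0.53 in arrays 13 to 24.

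Snord14e is a U14 copy in Hspa8, the gene of a constitutive heat shock chaperone. Its level was 8.89, 9.11 and 9.64 in mutants and 8.84, 9.30 and 9.80 in wild types, with a difference of -0.18, a standard error of 0.094 and an adjusted p of 0.463 in limma. Among the mutants, 10 lay below the wild-type median and no mutant below the lowest wild type. Hspa8 itself had a difference of -0.020. Rnu3a, a gene of U3, which is needed for the first cleavages of the precursor, had means of 5.57 ± 0.21 and 5.74 ± 0.23 (SD, n = 12 each) and a difference of -0.17, with an adjusted p of 0.433 in limma, and without wild type 12 the difference was -0.12. Snord22, a U22 gene in the noncoding host Snhg1, had a difference of 0.016.

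**Figure D4:**
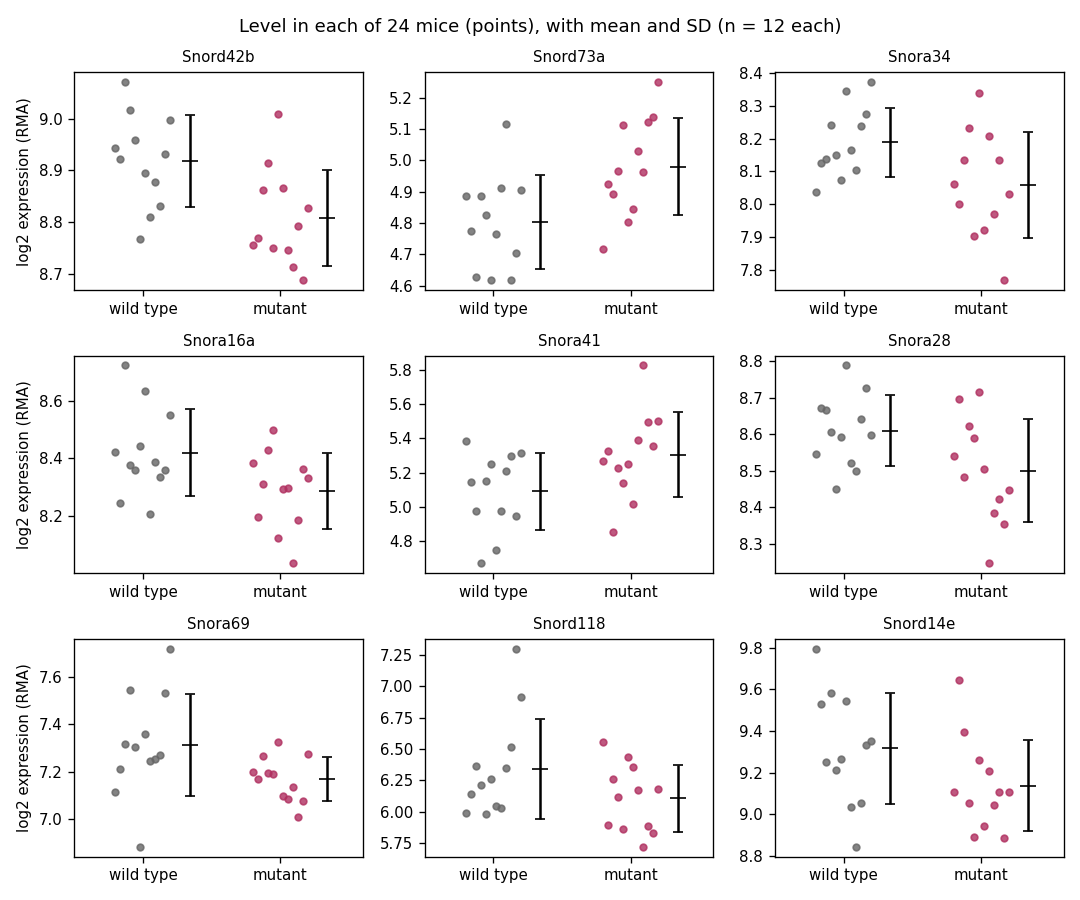
Log2 level of 9 small RNA genes in each of 24 mice (points; wild type grey, mutant red), with the mean and SD of each genotype beside the points (n = 12). The 7 genes with an unadjusted p under 0.05 are shown with Snord118 and Snord14e; the ranges of mutants and wild types overlap in each panel, and the axes differ between panels and do not start at 0.

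In the box H/ACA class 5 of 26 genes (19.2%) had an unadjusted p under 0.05, 4 lower and 1 higher in mutants. The corresponding shares of all genes were 5.82% lower and 6.11% higher. Snora34, which shares bases with Mir1291 in the Kansl2 locus, had 7.77, 8.05 and 8.34 in mutants and 8.04, 8.16 and 8.37 in wild types. Its difference was -0.13 with a standard error of 0.054 and an adjusted p of 0.329 in limma. Below the lowest wild type lay 6 mutants, the largest such number among the 7 genes. Snora2b, in the same gene Kansl2, had -0.0098, and Kansl2 -0.031.

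Snora16a belongs to Snhg12, a noncoding host gene that also holds Snora44 and Snora61. The levels of Snora16a were 8.04, 8.30 and 8.50 in mutants and 8.21, 8.38 and 8.72 in wild types, with a difference of -0.13 (standard error 0.056) and an adjusted p of 0.339 in limma. The RNAs of this host had differences on the same side, -0.10 for Snora61 and -0.049 for Snora44. Snora28 lies in Eif5, the gene of a translation initiation factor. It had 8.25, 8.49 and 8.71 in mutants and 8.45, 8.60 and 8.79 in wild types, a difference of -0.11 and an adjusted p of 0.373 in limma. Its difference was 0.0053 in arrays 1 to 12 and -0.25 in arrays 13 to 24.

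Snora69 lies in the X-linked ribosomal protein gene Rpl39. Its mutants kept to a narrow range, 7.01, 7.18 and 7.33, inside that of wild types, 6.89, 7.29 and 7.72. The difference was -0.14 with an adjusted p of 0.383 in limma, and -0.11 without wild type 12, which was the highest. Snora41, in the elongation factor gene Eef1b2, had the largest positive difference. Its level was 4.86, 5.30 and 5.82 in mutants and 4.67, 5.15 and 5.38 in wild types, a difference of 0.21 with a standard error of 0.092 and an adjusted p of 0.351 in limma. Above the highest wild type lay 4 mutants, and the difference was 0.088 in arrays 1 to 12 and 0.41 in arrays 13 to 24. The remaining named H/ACA genes with positive differences were Snora5c (0.076), Snora30 (0.032) and Snora75 (0.022). The steadiest gene of the 64 was Snora52 in Rplp2, with a spread within genotypes of 0.055 and a difference of -0.035.

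The 3 Cajal body RNAs, which guide modification of snRNAs, did not share a sign. Scarna13, the host of Mir3069, had 9.67 ± 0.16 in mutants and 9.75 ± 0.17 in wild types (SD, n = 12 each), a difference of -0.085 with an interval of -0.22 to 0.049. Scarna17 had a difference of 0.066 (-0.056 to 0.19) and Scarna8 one of 0.079 (-0.063 to 0.22). Their adjusted p in limma was 0.641 or more. The values of the other hairpin-sharing RNAs were -0.0096 for Snord33, -0.0021 for Snora19 and -0.029 for Snora36b, so that of the 5 loci shown by sequence above, Snora34 alone had an unadjusted p under 0.05.

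Among spliceosomal RNAs, Rnu2-10, a copy of U2, which pairs with the branch point, had 11.23 ± 0.16 in mutants and 11.28 ± 0.14 in wild types (SD, n = 12 each). The difference was -0.043 with an interval of -0.16 to 0.078. U2 genes are near-identical copies, so the row may read several of them. The symbol was carried by 11 rows with 6 distinct sets of values, and their differences ran from -0.048 to -0.013. Rnu12, the U12 RNA of the minor spliceosome, had 7.22 ± 0.12 and 7.21 ± 0.10 and the narrowest interval of the class, -0.087 to 0.096. Rnu5g, a variant of U5, which holds the exon ends together, had a difference of 0.060 (-0.087 to 0.21). Rnu7 gave the dimmest row of the 64, at 3.53 ± 0.34 in mutants and 3.41 ± 0.35 in wild types (SD, n = 12 each), and the widest interval, -0.15 to 0.40. Its difference was 0.12 over all arrays, -0.10 in arrays 1 to 12 and 0.34 in arrays 13 to 24. Rows that carry Rnu7 together with Atn1 or with Grcc10 stood outside the 64 and were brighter. Their means in mutants were 10.91 and 10.38, and their differences 0.033 and -0.0040. Such a row does not separate Rnu7 from the other gene whose symbol it carries.

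The small RNA rows varied more between mice of one genotype than most genes. Their median SD within genotypes was 0.159 against 0.118 for all genes, and 50 of the 64 lay above the latter. It was 0.182 for box C/D and 0.142 for box H/ACA genes, and the largest were those of Rnu7 (0.348), Snord118 (0.342) and Snord61 (0.318). A wide spread was not particular to these rows. The 303 microRNA precursor genes had a median SD of 0.178, with 279 of them above the median of all genes. Median levels were 7.16 for the 64 genes, 5.68 for the precursors and 7.58 for all genes. For 12 pairs of RNAs that lie in 1 gene, the median correlation of their deviations from the genotype means over 24 mice was 0.23, beside 0.090 for the 2004 other pairs.

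Snord33 and Snord35a, both in introns of Rpl13a, were the most closely tied pair, with Pearson's r = 0.805 (permutation p = 2e-05, adjusted 0.00094 over 47 relations) and Spearman's rho = 0.683 (permutation p = 0.00051, adjusted 0.012) over 24 mice. Without the 2 mice farthest from the median of Snord33, r was 0.652. Their differences between genotypes were -0.0096 and -0.0031. Snord49a and Snord49b had r = 0.624 with an adjusted permutation p of 0.072.

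For 35 small RNA genes the containing gene was measured too, giving 30 host genes. None of the 30 passed the test in limma; 2 had an unadjusted p under 0.05, namely Ipo7, an importin gene that holds Snora23, at -0.10 (adjusted p = 0.173), and Eif3a, a subunit gene of an initiation factor, at -0.057 (adjusted p = 0.324). All genes had 11.9% at that p. The difference was below 0 in 24 of the 30 hosts, beside 9600 of all 18820 genes, with a median of -0.035. Across the 35 genes, which share hosts and arrays and are no independent replicates, the differences of the RNA and of its host had r = -0.16, a description without a test. The row of a small RNA does not separate the mature RNA from the intron that carries it.

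**Figure D5:**
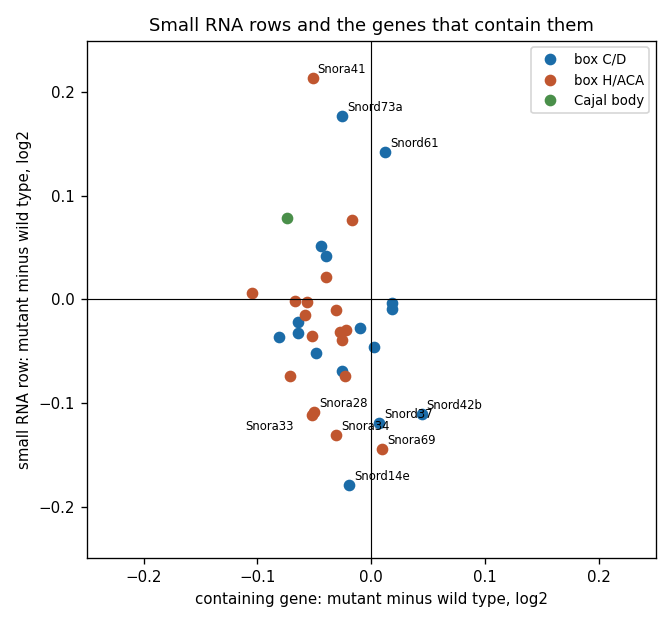
Mutant minus wild-type difference (log2) of 35 small RNA rows against that of the gene containing each, coloured by class; genes with a difference beyond 0.1 are named. The hosts lie between -0.10 and 0.044, a narrower range than that of the RNAs they contain, and the points show no common slope (r = -0.16).

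Over mice, the correlation of an RNA with its host within genotypes had a median of 0.19 and ran from -0.54 for Snora5c and Tbrg4 to 0.67 for Snord42b and Rpl23a. Of the 35, the last alone passed the adjustment over 47 relations on Pearson's r (permutation p = 0.00054, adjusted 0.0127; Spearman's rho = 0.695, permutation p = 0.00038, adjusted 0.012; r = 0.524 without the 2 mice farthest from the median of Snord42b). Snora28 and Eif5 had r = 0.557 (adjusted permutation p = 0.0788) and rho = 0.608 (adjusted permutation p = 0.0426). Although the levels of Snord42b and Rpl23a went together over mice, their differences between genotypes had opposite signs, -0.11 and 0.044. The log2 ratio of the row of Snord42b to that of Rpl23a was -1.50 ± 0.06 in mutants, from -1.59 to -1.38, and -1.34 ± 0.07 in wild types, from -1.48 to -1.23 (SD, n = 12 each). This ratio was chosen after its values were seen and is given without a test.

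The proteins that assemble, modify with or process these RNAs were measured by 81 genes, of which none passed the test in limma, with 1 higher and 9 lower at an unadjusted p under 0.05, beside 11.9% of all genes in either direction. In 61 of the 81 the difference was below 0, beside 9600 of all 18820 genes, and the median was -0.024. All 4 box C/D proteins (Fbl, Nop56, Nop58 and Snu13) were below 0, with a median of -0.035. The 6 genes of box H/ACA proteins and their assembly factors were also below 0, with a median of -0.049, among them Nop10 at -0.087 (adjusted p = 0.292). The smallest p of the 81 belonged to Lsm5, a gene of the ring that binds U6, at -0.13 (adjusted p = 0.207), followed by Exosc9, a subunit gene of the RNA exosome, at -0.079 (adjusted p = 0.264). Snrpd1, a gene of the Sm ring of snRNAs, was on the positive side at 0.091 (adjusted p = 0.393). Snrpd3 and Snrpd2, genes of the same ring, stood at -0.060 (adjusted p = 0.290) and -0.045 (adjusted p = 0.686).

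In bulk tissue, fewer cells of a type and less RNA per cell cannot be told apart. Of 34 markers of neurons, glia, vessels, choroid plexus, blood and striatum none was called in limma, with 3 lower and 2 higher at an unadjusted p under 0.05. The 3 were the neutrophil genes Ngp at -1.20, S100a8 at -0.67 and S100a9 at -0.46, and the 2 were the striatal genes. The neuronal markers lay between 10.6 and 13.6. Whether the makeup of the samples had a part in the values of the small RNAs was not tested.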

How the data were processed

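Expression was measured on 24 arrays, 12 per genotype, as 35556 probe sets. The deposited values are log2 levels normalised by the authors with RMA (robust multi-array average), per the submitters' processing notes. Of its settings, of the summary of probes and of the build, the labels and the table say nothing. RMA draws arrays to a common distribution, so that a shift of all genes cannot be seen, and the table holds no detection calls. Array medians ran from 6.71 to 6.82, and arrays correlated at 0.994 to 0.997; the number of arrays limits precision. Probe sets were named by the platform annotation: 21218 had 1 symbol, 1881 several and 12457 none. The brightest row of each of 18820 genes entered lmFit and eBayes (limma 3.58.1, R 4.3.3), two-sided, at an adjusted p under 0.05; the script was tested on simulated data. Members and gene lists were chosen with earlier results of these data known. Genes described are those of smallest p, 4 per direction in each class, every Rnu gene, the 4 partners and hosts of smallest p, and the interval genes as a check; others, chosen after their values were seen, are hairpin-sharing RNAs, RNAs of the same host, and extremes of level or spread. A containing gene is the shortest gene of the RefSeq table (GRCm38.p6) around the RNA, without regard to strand, which that table does not give. Permutation tests of correlations drew 100000 resamples within genotypes. The labels state no pairing of mice, and the main fit did not pair them by replicate number. Deviations of same-numbered mice correlated at -0.08 to 0.31, with a median of 0.096, beside a median of -0.014 for other numbers. Of the 12 mutants, 2 correlated most with the wild type of their own number. These values do not settle whether same-numbered mice were paired.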

Additional observations from a re-analysis of the deposited data

How the results depend on the processing

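No small RNA gene was called in either direction under any of 13 alternatives (normalization, centring, variance trend, array weights, filters on dim genes, treatment of several probe sets, blocks, subsets of arrays) or 24 fits without 1 mouse each. Calls were few among all genes too. Of 18820 genes, 94 were called higher and 40 lower with quantile normalization, and 35 higher and 23 lower in arrays 1 to 12. The filter at the median level kept 25 of the 64 genes. The smallest adjusted p of a named gene in any of these limma fits was 0.0646, for Snord42b. With the replicate block, which the labels' numbers do not justify as a pairing, no call changed. Each number held 1 mutant and 1 wild type, so this block could not move any difference. The medians were by design those of the main fit. They stood at -0.032 over the 64 genes, -0.036 for box C/D, -0.033 for box H/ACA and 0.0046 for spliceosomal genes. Leaving out each mouse in turn, the medians ranged from -0.042 to -0.012 over the 64 genes, from -0.053 to -0.0077 for box C/D, from -0.045 to -0.023 for box H/ACA and from -0.018 to 0.017 for spliceosomal genes. Of the 23 named genes 8 changed sign somewhere. In arrays 1 to 12 this held for Snord118 (0.075), Snora28 (0.0053), Rnu2-10 (0.097) and Rnu7 (-0.10), and in arrays 13 to 24 for Snora30 (-0.014), Snora75 (-0.069), Scarna13 (0.011) and Rnu12 (-0.046). Rnu12 also did so with median centring (-0.00013) and without mutants 5, 9 and 10, which stood apart in an earlier analysis (-0.0073). Without 1 mouse, Rnu12 ranged from -0.018 to 0.017 and Snora75 from -0.010 to 0.056. Of the 23 named genes 10, none of them called, moved by over 1.5 times when 1 mouse was left out, among them Rnu5g (0.030 to 0.081), Rnu7 (0.063 to 0.20), Snora30 (0.0029 to 0.063) and Snord118 (-0.28 to -0.15). Without mutants 5, 9 and 10 the median over the 64 genes was -0.025. The cause was not tested. Dim rows such as Rnu7, Snora19 and Snord61 have the widest intervals or lie near the low end of the array range, 1.82 to 14.49 log2.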

Other observations

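The 28 rows of small RNAs with several symbols, read in the limma fit over all probe sets, had a smallest adjusted p of 0.535. The 28 rows held 18 distinct sets of values, whose median difference was -0.012, with 14 of 18 below 0, beside 17214 of all 35556 probe sets and a median of 0.0026. The U1 genes Rnu1b6, Rnu1b2 and Rnu1b1, whose RNA pairs with the donor site in splicing, shared 9 rows with 3 sets of values, at 7.41 ± 0.08 in mutants and 7.42 ± 0.13 in wild types (SD, n = 12 each) in the brightest. The U3 copies Rnu3b1 to Rnu3b4 shared 4 rows with identical values and a difference of -0.0096, beside -0.17 for the row of Rnu3a.

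Further copies of U14 were read by rows that carry Snord14d, Snord14c and Hspa8 together. The brightest of them had 9.40 ± 0.18 in mutants and 9.54 ± 0.22 in wild types (SD, n = 12 each), a difference of -0.15 with an adjusted p of 0.565. Snord14e, in the same gene, had -0.18. The row that carries Snord14a, a U14 copy, together with Rps13 had -0.0046. Rows that carry Rpl13a with Snord34 or with Snord32a had -0.14 and 0.035. The single-symbol rows of Snord33 and Snord35a, in the same host, had -0.0096 and -0.0031. A row with several symbols does not separate the small RNA from the host gene it names.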
